A study of Mus musculus with 4 samples.

Results

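The chemokine family was examined in the epididymal fat pad, a visceral adipose depot, of obese mice. Its genes were taken by symbol: the CC, CXC, XC and CX3C ligands and receptors, the atypical receptors (Ackr) and Ccrl2, which gave 63 of the 24421 genes in the expression matrix. Of these, 39 were ligands and 24 were receptors, and the receptors comprised 19 signalling receptors and 5 atypical ones. Poly(A) RNA from wild-type male C57BL/6J mice had been sequenced as directional libraries, with 2 libraries in each of 2 groups. Mice of the weight-cycling group (WC1) were put on high-fat diet (HFD) at the age of 8 weeks. They ate it for 8 weeks, lost weight on 2 weeks of standard diet, and returned to HFD for 6 weeks. Mice of the control group (Ctrl) received HFD for 14 weeks without a break from 10 weeks of age. Both groups thus had 14 weeks of HFD and were 24 weeks old at the end. The age at the start of HFD, the interval on standard diet and the length of the last run of HFD differed together between the groups and cannot be told apart. The labels do not say how many mice went into a library, and p-values therefore measure the spread between libraries.

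Chemokines are small secreted proteins that direct the movement of leukocytes. They bind membrane receptors that signal through inhibitory G proteins, and a receptor often serves several ligands. Most atypical receptors bind chemokines without G protein signalling and remove or transport them. In obese fat, Ccl2 and its receptor Ccr2 are best known for bringing blood monocytes into the tissue, where many become macrophages around dying adipocytes.

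The libraries held between 61465029 and 90965297 reads, and 3 reads corresponded to at most 0.0492 CPM. CPM here stands for the deposited signal, which is proportional to reads. Genes of the whole tissue shifted too: of 14106 genes tested, 1443 were higher and 1088 lower in WC1 (limma, adjusted p under 0.05), and the TPM matrix gave 1949 higher and 552 lower. The median log2 fold change of all tested genes was -0.02 in CPM and 0.10 in TPM. Adipocyte genes were well detected, with summed CPM between 11260 and 26349 over 14 genes, of which 11 were higher in WC1, and 7 of 8 epididymis genes were at 0 in every library. Macrophage genes summed to 23116 and 20782 CPM in Ctrl and to 14025 and 8927 CPM in WC1, and 9 of 20 were called, all of them lower. Mast cell genes summed to 568 and 633 CPM in Ctrl and to 86.1 and 69.1 CPM in WC1, with 7 of 8 lower, whereas 6 of 10 endothelial genes were higher. In bulk tissue, fewer cells of a type and less RNA per cell cannot be told apart.

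Where chemokine ligands differed between the groups, most were lower in WC1. The filter of at least 0.5 CPM in at least 2 of 4 libraries kept 44 family members, 29 ligands and 15 receptors. Among the ligands 10 were called lower and 1 higher, and among the receptors 4 were called lower and 1 higher. The background was 7.71% of all tested genes called lower, 10.2% called higher and 17.9% called in either direction, against 31.8%, 4.55% and 36.4% of the tested members. Cxcl5 passed the filter through the Ctrl libraries alone, and besides it 9 ligands and 13 members in all were lower (30.2% of 43). Of the 44 tested members, 8 (18.2%) were called with a decrease of at least 1 on the log2 scale, and 1.40% of all tested genes were. Both WC1 libraries lay below both Ctrl libraries for 19 of 44 members and above them for 6, while 36.6% and 32.7% of all tested genes did so (69.3% in either direction). The median log2 fold change was -0.29 over the tested ligands and 0.11 over the tested receptors. Among these receptors it was -0.18 over the 10 signalling ones and 0.27 over the 5 atypical ones. All 16 calls were lost when either Ctrl library was left out (0 members called by limma, with 17 members at an unadjusted p under 0.05 without Ctrl 1 and 20 without Ctrl 2). Over all tested genes the share called was then 0.0425% and 0.0851%. Without WC1 1, 23 members were called (36.7% of all tested genes), and without WC1 2, 19 were (18.8%).

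**Figure D1:**
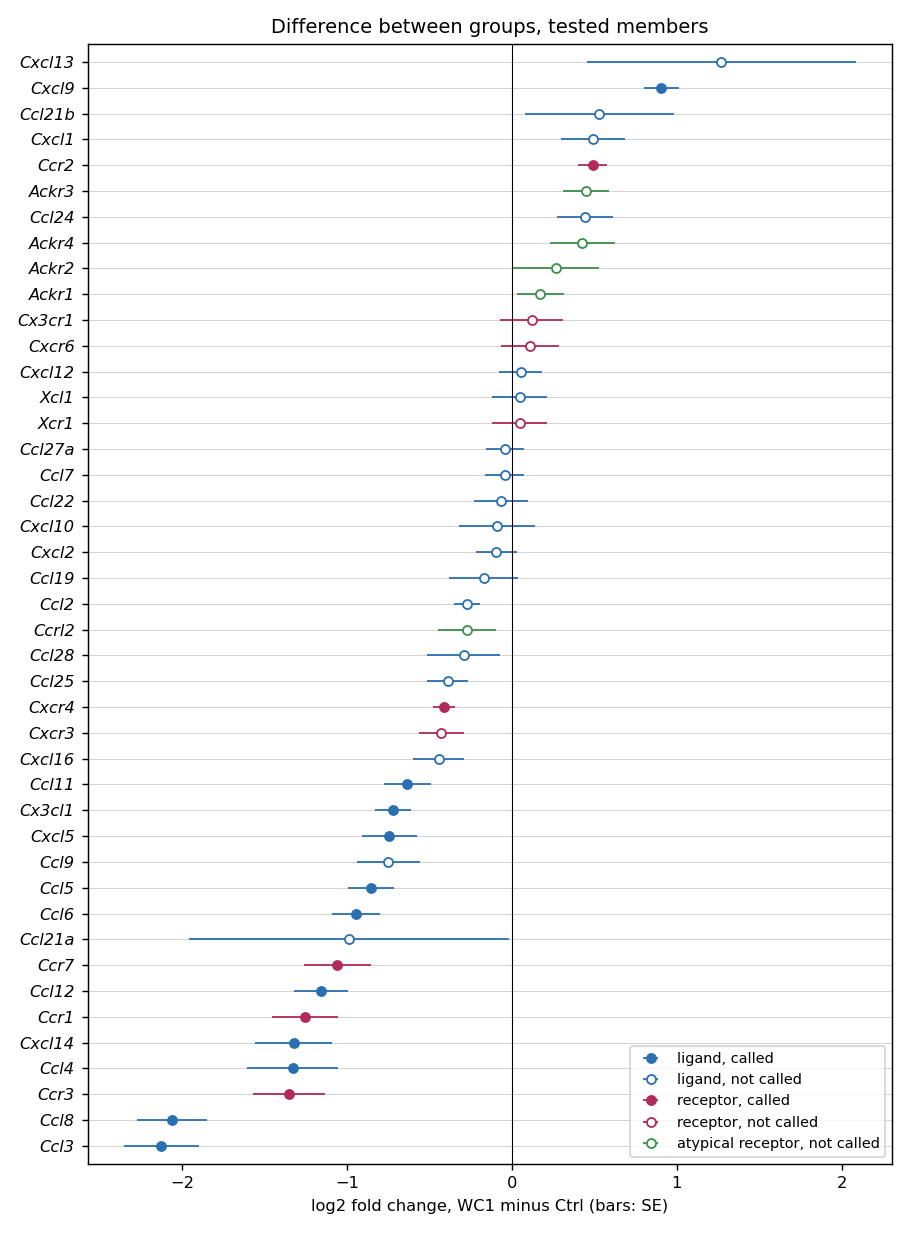
Log2 fold change (WC1 minus Ctrl, log2(CPM + 1) scale) of 43 tested members, with bars for the SE; filled circles mark members with a limma adjusted p under 0.05. Of the 16 filled circles, 14 lie left of 0 and only Cxcl9 and Ccr2 lie right of it.

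By level, the ligand pool of this tissue was dominated by Ccl6 and Ccl9, CC chemokines of rodents that act on Ccr1. Mean TPM, which corrects for transcript length, was 1341 for Ccl6 and 623 for Ccl9, which placed them at ranks 91 and 241 among all genes of the matrix. Next came Cxcl12 with a mean TPM of 167, Ccl2 with 165, Ccl11 with 151 and Ccl8 with 147. Ccl6 and Ccl9 together made up 69.1% and 68.2% of the summed ligand TPM in Ctrl and 68.6% and 60.0% in WC1. Summed over all ligands, TPM was 3453 and 3692 in Ctrl and 2403 and 2174 in WC1, so both WC1 libraries lay below both Ctrl libraries. Receptors were far less abundant, with summed TPM of 280 and 282 in Ctrl against 302 and 310 in WC1. Among the most abundant receptors by mean TPM were Ackr3 with 67.9, Cxcr4 with 60.5 and Ccr2 with 41.2.

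On the log2(CPM + 1) scale, the largest decreases were those of Ccl3 and Ccl8, CC ligands encoded in 2 gene clusters on chromosome 11. Ccl3, a chemokine of activated macrophages that binds Ccr1, measured 21.9 and 19.3 CPM in Ctrl and 5.15 and 2.97 CPM in WC1. The groups did not overlap, and the mean was 5.08-fold lower in WC1 (log2 fold change -2.13 ± 0.23 SE, limma adjusted p = 0.014). Ccl8, a relative of Ccl2 in the monocyte chemoattractant group, measured 59.9 and 64.6 CPM in Ctrl and 11.2 and 17.8 CPM in WC1. Its mean was 4.30-fold lower (-2.06 ± 0.21, limma adjusted p = 0.014), again without overlap. Ccl12, a ligand of Ccr2 in the mouse, had 2.57 and 2.59 CPM in Ctrl and 0.819 and 0.413 CPM in WC1. Here the Ctrl libraries were nearly equal and the mean was 4.19-fold lower (-1.16 ± 0.17, limma adjusted p = 0.020). Neither Ccl3, Ccl8 nor Ccl12 lost its call under any alternative that kept all libraries. The summed macrophage genes were lower in the same libraries, and levels relative to that sum are given further on.

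The sequences before the starts of these genes are shown because the genes moved together, and that of Cx3cl1 because it fell too and holds the same TATAA letters. Each run is the 120 bases before the RefSeq start (GRCm38.p6), read 5′ to 3′ on the strand of the gene, with TATAA in capitals.
Ccl3, chr11:83649379-83649498, minus strand: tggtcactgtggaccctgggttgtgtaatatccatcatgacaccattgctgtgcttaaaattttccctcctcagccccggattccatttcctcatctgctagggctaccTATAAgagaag
Ccl8, chr11:82115065-82115184, plus strand: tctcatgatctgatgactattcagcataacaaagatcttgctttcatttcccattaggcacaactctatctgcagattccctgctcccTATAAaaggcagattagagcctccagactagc
Ccl12, chr11:82101725-82101844, plus strand: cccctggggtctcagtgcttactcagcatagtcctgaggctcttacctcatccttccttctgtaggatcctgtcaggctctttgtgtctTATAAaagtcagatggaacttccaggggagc
Cx3cl1, chr8:94772060-94772179, plus strand: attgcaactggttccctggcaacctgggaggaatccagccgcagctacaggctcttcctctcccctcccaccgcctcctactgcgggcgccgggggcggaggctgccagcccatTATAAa
TATAA began 11 bases before the start of Ccl3, 32 before Ccl8, 31 before Ccl12 and 6 before Cx3cl1. RefSeq promoters were matched for 34 of the 44 tested members, which have 39 starts in the table. TATAA on the strand of the gene within 50 bases before the start was present at 6 of 24 ligand starts and 2 of 15 receptor starts, and at 4.93% of all 32851 starts. Besides the genes shown, these were Cxcr4, called lower, and Ackr3, Ccl25 and Cxcl13, not called. The other members called lower had no such match or no matched promoter. These are matches of letters and describe the windows only.

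In GENCODE M21 (mm10), Ccl2, Ccl7, Ccl11, Ccl12 and Ccl8 lie within 81.2 kb of chromosome 11 (82035571 to 82116799). Ccl12 and Ccl8, at the far end and 11.784 kb apart, had the largest decreases of the group. Ccl11, the eosinophil attractant eotaxin, lies between them and Ccl7 and measured 89.1 and 108.5 CPM in Ctrl and 56.7 and 70.0 CPM in WC1. Its decrease was smaller (-0.63 ± 0.14, limma adjusted p = 0.044), and the call was lost on the TPM matrix, without a filter, with median-of-ratios scaling and in edgeR.

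Ccl2, the main monocyte attractant of obese fat, was not called. It had 69.6 and 75.3 CPM in Ctrl and 57.3 and 62.5 CPM in WC1. Both WC1 libraries were below both Ctrl libraries, but the difference did not pass the threshold (-0.27 ± 0.08, limma adjusted p = 0.078; with the replicate block 0.049). Ccl7, which also binds Ccr2, measured 30.3 and 33.1 CPM in Ctrl and 27.8 and 33.9 CPM in WC1. The groups overlapped, and the 95% interval of its log2 fold change ran from -0.35 to 0.26.

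A further CC cluster on chromosome 11 (83525778 to 83664683, 138.9 kb) holds Ccl5, Ccl9, Ccl6, Ccl3 and Ccl4. Of these 5, 4 were called lower, against 7.71% of all tested genes and 31.8% of the tested members. Ccl4, the neighbour of Ccl3 at a distance of 13.228 kb, had 6.24 and 5.63 CPM in Ctrl and 2.62 and 1.10 CPM in WC1. The mean was 3.19-fold lower (-1.33 ± 0.28, limma adjusted p = 0.037), and the call was lost without a filter, on the TPM matrix and in edgeR. Ccl5, a product of activated T cells and macrophages, measured 6.48 and 5.39 CPM in Ctrl and 2.59 and 3.08 CPM in WC1. That was 2.09-fold lower (-0.85 ± 0.14, limma adjusted p = 0.025), and the call was lost without a filter. Ccl6 measured 1249 and 1298 CPM in Ctrl against 739 and 591 CPM in WC1. The most abundant chemokine of the tissue was thus 1.92-fold lower by mean, without overlap (-0.95 ± 0.14, limma adjusted p = 0.023). Ccl9, with 1140 and 1206 CPM in Ctrl and 830 and 584 CPM in WC1, did not overlap either but missed the threshold (-0.75 ± 0.19, limma adjusted p = 0.056), which it passed in DESeq2 and with the replicate block.

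**Figure D2:**
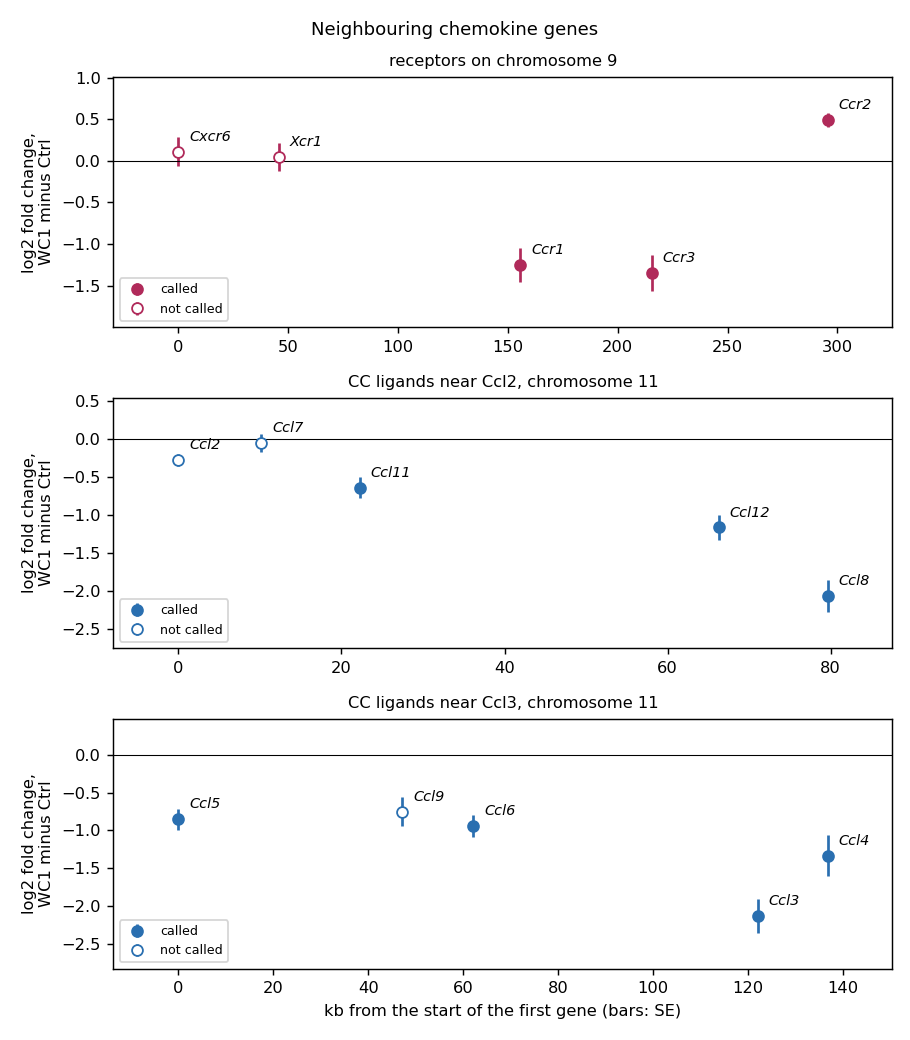
Log2 fold change (WC1 minus Ctrl) of tested neighbouring members against distance in kb from the start of the first gene of each cluster, with bars for the SE and filled circles for called genes. On chromosome 9, Ccr1 and Ccr3 lie at -1.26 and -1.35 while Ccr2 lies at 0.49; in both CC ligand clusters no called gene lies above 0.

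Further ligands outside these clusters were also lower. Cx3cl1, or fractalkine, is held on endothelial and other cells by a stalk and is the ligand of Cx3cr1. It had 20.8 and 20.2 CPM in Ctrl and 13.1 and 11.1 CPM in WC1, without overlap (-0.72 ± 0.11, limma adjusted p = 0.023). Cxcl14 measured 26.9 and 34.9 CPM in Ctrl and 14.5 and 9.29 CPM in WC1. Its mean was 2.59-fold lower (-1.32 ± 0.23, limma adjusted p = 0.028), and this call too was lost without a filter. Of 10 fibroblast genes, 4 were called lower (Pdgfra, Dcn, Lum and Thy1), against 7.71% of all tested genes. Not called were Col1a1 (log2 fold change 0.09), Fbn1 (0.06), Dpp4 (0.27), Col1a2 (-0.12), Col3a1 (-0.36) and Pi16 (-0.42). The list had summed CPM of 11309 and 10883 in Ctrl against 10307 and 7922 in WC1. The part of fibroblasts in the Cxcl14 and Ccl11 levels was not tested. Cxcl5, a neutrophil attractant that binds Cxcr2, was scarce, with reads numbering 47 and 86 in Ctrl against 12 and 0 in WC1. Its mean CPM was 8.52-fold lower in WC1, a description only since the filter was passed through the Ctrl libraries alone, and its call was lost with a pseudocount of 0.1, without a filter, in edgeR, with the replicate block and without WC1 2. Of the neutrophil markers, 2 of 7 in the matrix passed the filter and Ngp was at 0 in all libraries. S100a8, 1 of the 2 tested, had 6.93 and 4.70 CPM in Ctrl against 12.4 and 18.7 CPM in WC1 and was called higher (1.27, limma adjusted p = 0.034). The other, Csf3r, had 12.4 and 14.3 CPM in Ctrl against 11.2 and 11.1 CPM in WC1 (-0.24, limma adjusted p = 0.164). S100a9, below the filter, had 0.658 and 0.356 CPM in Ctrl against 0.0983 and 0.159 CPM in WC1, and Retnlg had at most 0.205 CPM in Ctrl and 0 in WC1.

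Cxcl9 was the only ligand called higher. This interferon-γ-induced ligand of Cxcr3 attracts activated T cells and NK cells. It measured 17.4 and 20.6 CPM in Ctrl and 37.2 and 35.6 CPM in WC1, so each WC1 library was above both Ctrl libraries. The mean was 1.92-fold higher (log2 fold change 0.91 ± 0.10, limma adjusted p = 0.016), and no alternative that kept all libraries removed the call. Cxcl10, an interferon-induced ligand of the same receptor whose gene lies 18.558 kb away on chromosome 5, had 3.20 and 4.92 CPM in Ctrl and 3.05 and 4.42 CPM in WC1. Its groups overlapped, with a 95% interval of the log2 fold change from -0.69 to 0.50, and Cxcl11, the next gene, was below the filter. T and NK cell genes summed to 23.9 and 18.9 CPM in Ctrl and to 16.7 and 27.1 CPM in WC1. Of 13 such genes tested, only Gzmb was called, and it was lower; the part of these cells in the Cxcl9 level was not tested. Cxcr3 itself had 4.71 and 3.73 CPM in Ctrl and 2.85 and 2.88 CPM in WC1, a difference that missed the threshold (-0.43 ± 0.14, limma adjusted p = 0.091).

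The promoter of Cxcl9 is shown as that of the only ligand called higher. It holds a κB-like match, in capitals below, 42 bases before the start, and another 130 bases before the start that lies outside the printed window.
Cxcl9, chr5:92328080-92328199, minus strand: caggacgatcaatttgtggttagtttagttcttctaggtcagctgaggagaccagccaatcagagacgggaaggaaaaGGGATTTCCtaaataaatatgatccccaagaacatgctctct
The κB-like motif was searched as GGGNNTTCC, or the same with 1 more N in the middle, on both strands of the 250 bases before each start, and a window with either form was counted once. It was present at 6 of 24 ligand starts and 4 of 15 receptor starts of tested members, and at 8.26% of all starts. Of the members with it, only Cxcl9, higher, and Ccr3, lower, were called, and Ccl9 and Cxcl10 were among the others. An interferon-response-like motif (GAAA, any 2 bases and GAAA again, on both strands) was present at 3 of 24 ligand and 0 of 15 receptor starts, against 2.98% of all. A GAS-like motif (TTCNNNGAA, which reads alike on both strands) was present at 1 of 24 and 0 of 15, against 7.02% of all. The window of Cxcl9 held neither the interferon-response-like nor the GAS-like motif, and that of Cxcl14, called lower, held both.

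**Figure D3:**
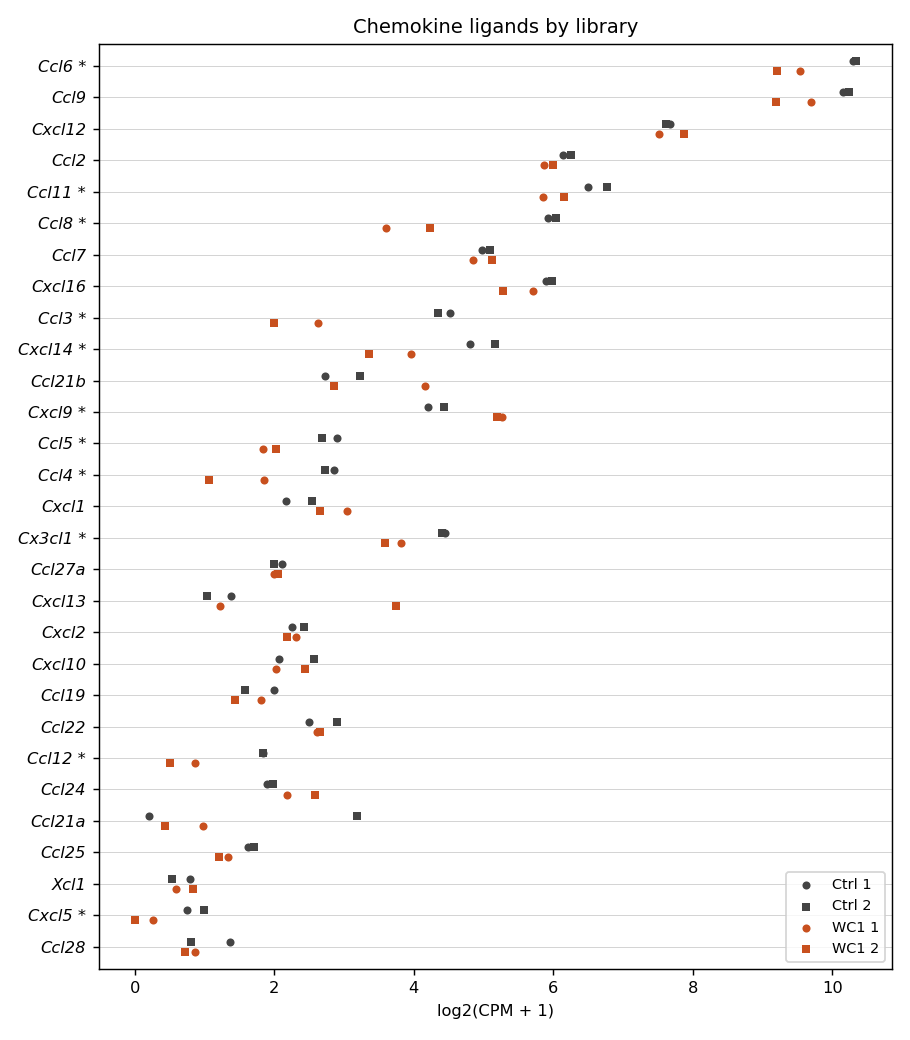
Level of the 29 tested ligands in each library as log2(CPM + 1), ordered by mean TPM, with grey marks for Ctrl and orange marks for WC1; an asterisk marks a limma adjusted p under 0.05. Ccl3 and Ccl8 show the widest gaps between the groups, Cxcl9 is the only asterisked ligand with orange marks to the right, and Cxcl13 and Ccl21a each have 1 library far from the other 3.

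The remaining named ligands did not pass the threshold. Cxcl12, the ligand of Cxcr4 made by stromal and endothelial cells, measured 203 and 195 CPM in Ctrl and 182 and 234 CPM in WC1. The WC1 libraries lay on either side of the Ctrl libraries, and the 95% interval of the log2 fold change was -0.29 to 0.39. Cxcl16, the membrane-bound ligand of Cxcr6, had 58.3 and 61.9 CPM in Ctrl and 51.1 and 37.7 CPM in WC1 (-0.44 ± 0.15, limma adjusted p = 0.104), and was called in DESeq2 alone among the settings with all libraries. Ccl24, another eotaxin, had 2.73 and 2.94 CPM in Ctrl and 3.54 and 5.004 CPM in WC1 (0.44 ± 0.17, limma adjusted p = 0.127). Xcl1, the ligand of Xcr1, and Ccl19, a ligand of Ccr7, overlapped between the groups, with log2 fold changes of 0.05 and -0.17.

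Among the receptors, Ccr1 and Ccr3 were lower in WC1 and their neighbour Ccr2 was higher. Ccr1, a receptor of monocytes, macrophages and neutrophils for Ccl3, Ccl5, Ccl6 and Ccl9, had 50.3 and 49.1 CPM in Ctrl and 25.1 and 16.3 CPM in WC1. The mean was 2.40-fold lower without overlap (-1.26 ± 0.20, limma adjusted p = 0.024). Ccr3, the eotaxin receptor of eosinophils that mast cells can also carry, measured 8.51 and 6.86 CPM in Ctrl and 3.08 and 1.81 CPM in WC1. Its mean was 3.14-fold lower (-1.35 ± 0.22, limma adjusted p = 0.024). The mast cell genes given above fell in the same libraries, and their part in the Ccr3 level was not tested.

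Ccr2, the receptor through which monocytes leave the bone marrow and enter inflamed tissue, rose. It had 62.9 and 57.4 CPM in Ctrl and 80.7 and 89.1 CPM in WC1, so the groups did not overlap. The mean was 1.41-fold higher (0.49 ± 0.09, limma adjusted p = 0.028), and no alternative with all libraries removed the call. Of 8 monocyte genes tested, Hp was higher and Plac8 lower. Hp had 2553 and 2145 CPM in Ctrl and 4183 and 5666 CPM in WC1, while no other gene of the list exceeded 169 CPM. Adipocyte genes rose in the same libraries, and their part in the Hp level was not tested. Ly6c2, which marks classical monocytes, had 5.98 and 5.06 CPM in Ctrl and 4.83 and 5.97 CPM in WC1. In GENCODE M21 (mm10), Ccr2 lies at 124101950 to 124113557 on chromosome 9, Ccr3 at 124021972 to 124031689 and Ccr1 at 123962124 to 123968692, and 70.26 kb separate the end of Ccr3 from the start of Ccr2.

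Ccr7 and Cxcr4 were the other receptors called. Ccr7, which guides mature dendritic cells and naive T cells to lymph nodes, had 5.98 and 5.95 CPM in Ctrl and 1.77 and 3.03 CPM in WC1. It was 2.48-fold lower by mean (-1.06 ± 0.20, limma adjusted p = 0.032), and the call was lost without a filter. The 10 dendritic cell genes, which include Ccr7 and Xcr1, summed to 146 and 149 CPM in Ctrl and 136 and 139 CPM in WC1. Most of that sum was Irf8, with 111 and 110 CPM in Ctrl and 104 and 98.8 CPM in WC1. Flt3 and Ccr7 were lower and Zbtb46 higher, and the part of dendritic cells in the Ccr7 level was not tested. Cxcr4, a receptor of most leukocytes and of stem cells for Cxcl12, had 61.5 and 63.9 CPM in Ctrl and 46.5 and 47.1 CPM in WC1. The decrease was small but exceeded the spread between libraries (-0.41 ± 0.07, limma adjusted p = 0.024), and it was not called on the TPM matrix. Ackr3, the atypical receptor that scavenges Cxcl12, had 52.7 and 62.5 CPM in Ctrl and 70.7 and 87.9 CPM in WC1. Both WC1 libraries were above both Ctrl libraries, but the difference missed the threshold (0.45 ± 0.14, limma adjusted p = 0.083), which it passed in DESeq2 (adjusted p = 0.022) and with the replicate block (0.017). The other atypical receptors, Ackr1, Ackr2, Ackr4 and Ccrl2, had log2 fold changes between -0.27 and 0.43, and none was called.

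Cx3cr1, a receptor of patrolling monocytes and some resident macrophages, measured 6.52 and 4.46 CPM in Ctrl and 5.44 and 6.53 CPM in WC1. The 95% interval of its log2 fold change was -0.37 to 0.61. Cxcr6 and Xcr1, receptors of T cell subsets and of cross-presenting dendritic cells, overlapped between the groups with log2 fold changes of 0.11 and 0.05.

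**Figure D4:**
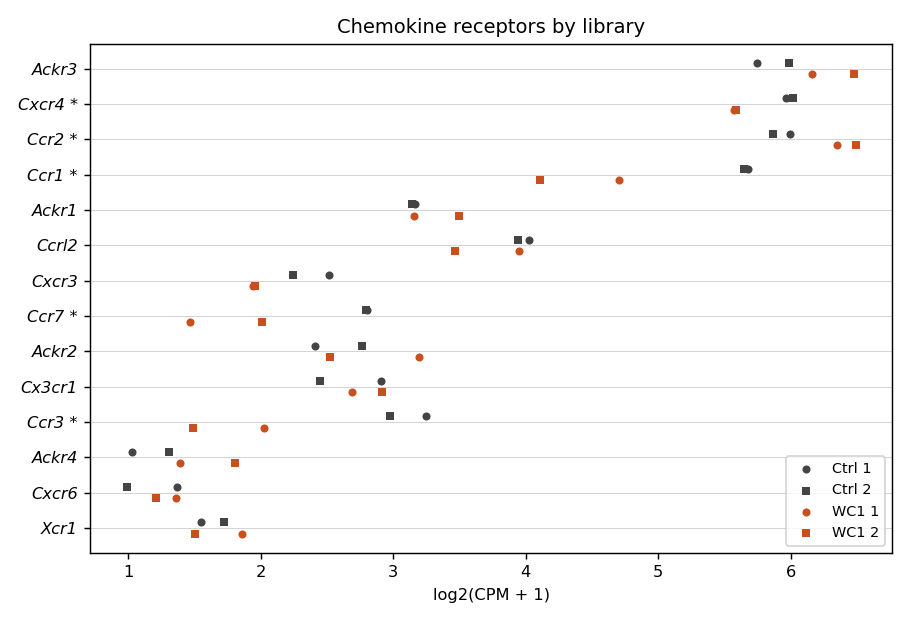
Level of 14 tested receptors in each library as log2(CPM + 1), ordered by mean TPM, with grey marks for Ctrl and orange marks for WC1; an asterisk marks a limma adjusted p under 0.05. Ccr2 is the only asterisked receptor with orange marks to the right of the grey ones.

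Set beside their ligands, the receptors did not move uniformly with them. Ccr1 was lower together with Ccl3, Ccl5 and Ccl6, while Ccl7 and Ccl9, which also bind it, were not called. Ccr2 was higher while its ligand Ccl12 was lower and Ccl2 and Ccl7 were not called. Ccr3 was lower with Ccl11 but not with Ccl24, and Ccr7 was lower with neither Ccl19 nor Ccl21a called. Cxcr4 was lower with Cxcl12 not called, while Cx3cl1 was lower with Cx3cr1 not called. The differences between a ligand and its receptor were not tested.

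Members below the filter numbered 19, of which 10 were ligands and 9 receptors. Ccl20, Ccl26 and Cxcl15 had 0 reads in all libraries, which allows up to 3 reads, or 0.0345 to 0.0492 CPM, per library for counting error. The neutrophil receptors Cxcr1 and Cxcr2, Ccr4 and Ccr8 of T cell subsets, and Ccl1, Ccl17, Cxcl3, Cxcl11 and Cxcl17 were also below it. So were Ccr6, Ccr9, Ccr10, Ccr1l1, Cxcr5, Ccl21c and Ccl27b. Apart from Cxcr5 and Ccr1l1, none of the 19 exceeded 0.5 CPM in any library.

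Several members share sequence with other genes, so the counting of their reads is uncertain. Over 50-base windows of the GENCODE M21 transcripts, 100% of Ccl21b, 98.1% of Ccl27b, 71.6% of Ccl21a, 52.0% of Ccl19 and 45.0% of Ccl27a recur in other genes. Among the called members the highest share was 1.91%, in Ccr2.

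The levels were also set relative to the summed CPM of the 20 macrophage genes, as a description without a test. Relative to that sum, both WC1 libraries lay below both Ctrl libraries for 8 of the 44 tested members (18.2%) and above them for 27 (61.4%), while 1.56% of all tested genes lay below and 92.2% above. Without Cxcl5, 7 of 43 lay below (16.3%). Of the 14 members called lower, which were thereby chosen for their decrease, 8 lay below, 5 overlapped and Cxcr4 lay above. Gpnmb and Lyz2 made up 60.7% and 58.0% of the sum in Ctrl and 54.7% and 50.4% in WC1. Without them, a variation chosen after seeing the data, 9 of the 44 tested members lay below (20.5%), Ccl6 and Cxcl5 among them, and 24 above (54.5%), against 2.67% of all tested genes below and 88.6% above. Ccl3 amounted to 0.0946% and 0.0930% of the sum in Ctrl and 0.0367% and 0.0333% in WC1, and Ccl8 to 0.259% and 0.311% against 0.0797% and 0.199%. Both WC1 libraries were thus below both Ctrl libraries for these ligands. Ccl6 amounted to 5.40% and 6.24% in Ctrl and 5.27% and 6.62% in WC1, so its groups overlapped. Ccr1, with 0.217% and 0.236% in Ctrl and 0.179% and 0.182% in WC1, stayed below. Ccr2 amounted to 0.272% and 0.276% in Ctrl and 0.576% and 0.998% in WC1. For Cxcl9 the shares were 0.0753% and 0.0990% in Ctrl against 0.265% and 0.399% in WC1. With all 20 genes in the sum, the members called lower that overlapped were Ccl5, Ccl6, Ccl11, Cx3cl1 and Ccr7.

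**Figure D5:**
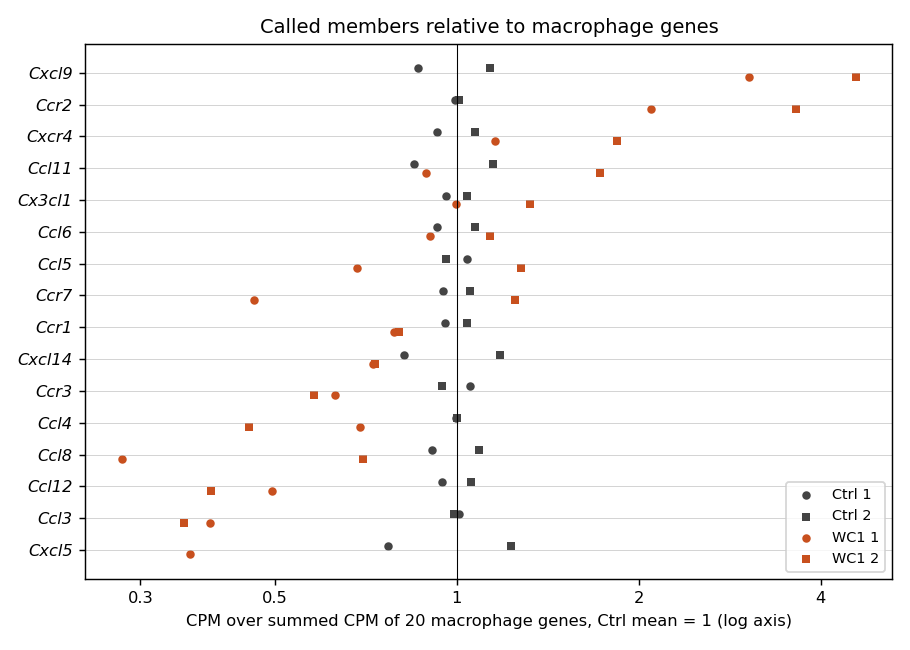
CPM of the 16 called members divided by the summed CPM of 20 macrophage genes, scaled to a Ctrl mean of 1 (log axis), with grey marks for Ctrl and orange marks for WC1; the WC1 2 value of Cxcl5 is 0 and is not drawn. Ccl3, Ccl12, Ccl4 and Ccr3 stay left of both grey marks, Ccl6 lies around 1, and Cxcl9 and Ccr2 lie furthest right.

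Genes that relay chemokine signals inside the cell were split. Of 55 tested genes in a list of G proteins, kinases, exchange factors and regulators, 7 were called higher and 9 lower (29.1% called, against 17.9% of all tested genes), with a median log2 fold change of -0.24 against -0.02. Lower were 3 G protein gamma subunits, Gng2, Gng5 and Gng10, the arrestin Arrb2, the leukocyte PI3-kinase subunit Pik3cd, Elmo1, which activates Rac with Dock2, and the Src-family kinase Lyn. Another Src-family kinase, Fgr, had the largest decrease, from 29.1 and 26.6 CPM to 10.7 and 11.4 CPM (-1.26 ± 0.09, limma adjusted p = 0.009). Rac2, a small GTPase of blood cells that drives their migration, fell from 213 and 204 CPM to 129 and 90.5 CPM (-0.94 ± 0.17, limma adjusted p = 0.030). Among the higher were the G protein alpha subunits Gnai1 (log2 fold change 0.96) and Gnao1 (0.58), the phospholipases Plcb1 (0.81) and Plcb4 (0.99), Rasgrp2 (0.81) and Rgs16 (0.62). On the TPM matrix 3 of the list's genes were called lower, against 552 of all 14234 genes tested there. In DESeq2 21 were, against 1736 of all 14106.

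Some genes of a list of chemoattractants, their receptors and related genes outside the symbol rule were lower too. Of 17 tested, 5 were called, all of them lower (29.4%, against 17.9% of all tested genes called and 7.71% called lower), and the median log2 fold change was -0.29. Pf4, the platelet and macrophage CXC chemokine also called Cxcl4, measured 84.0 and 93.3 CPM in Ctrl and 51.4 and 44.0 CPM in WC1 (-0.88 ± 0.11, limma adjusted p = 0.016). The others were Cmtm7 (-1.03), Mif (-0.52), the chemerin receptor Cmklr1 (-0.29) and the formyl peptide receptor Fpr2. The call of Cmklr1 was lost without a filter, on the TPM matrix, with median-of-ratios scaling and in edgeR. Fpr2 had 1.02 and 1.03 CPM in Ctrl and 0.295 and 0.381 CPM in WC1, so that it passed the filter through Ctrl alone, and its call was lost with the replicate block. Besides Fpr2, 4 of 16 were called (25.0%). The calls did not hold when either Ctrl library was left out, where few of all tested genes were called. DESeq2 and the replicate block each called 10 of the 17, against 3861 and 3266 of all 14106 tested genes. Rarres2, the gene of chemerin, was picked after its values had been seen. It had 183 and 199 CPM in Ctrl and 249 and 318 CPM in WC1 and missed the threshold (0.56 ± 0.14, limma adjusted p = 0.052).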

How the data were processed

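Poly(A) RNA-seq of epididymal adipose tissue was available for 4 libraries, grouped by their titles. The 2 deposited gene-by-library matrices were used. Per the submitters' processing notes, reads were handled with fastp, HISAT2 and StringTie on mm10; versions, annotation and read counter were not given in the sources used here. The first matrix is a deposited signal, called CPM by the authors, whose columns sum to 97.6% to 105% of what plain CPM would sum to; 100% of its values were whole multiples of 1 read to within 0.01 read, so reads were recovered for count tests. The second holds deposited TPM.

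Tests covered genes that reached 0.5 CPM in 2 or more of the 4 libraries (14106 kept, 10315 removed). WC1 was compared with Ctrl on log2(CPM + 1), a scale that understates changes of low genes, by limma 3.58.1 in R 4.3.3 with an abundance trend, two-sided and with Benjamini-Hochberg adjustment at 0.05 over all tested genes. A gene past it is said to be called, higher or lower. Fold changes are WC1 minus Ctrl, with the SE of the fit; fold differences of means are from CPM. An exact permutation test of 2 against 2 libraries cannot go below p = 0.333. Libraries of a group differed by more than counting noise (chi-square over its degrees of freedom was 36.9 for Ctrl and 93.4 for WC1). Alternatives were other pseudocounts, filters and scalings, the TPM matrix, edgeR 4.0.16 and DESeq2 1.42.0 on recovered reads, a replicate block, and leaving out each library. Scripts were tested on simulated data.

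Coordinates are from GENCODE M21 (mm10) and promoters from RefSeq (GRCm38.p6). Named with values were called members, the 6 ligands and 4 receptors highest in TPM, members of ligand and receptor pairs with a tested receptor, and members without overlap and with a log2 fold change of at least 0.5 in size; of the list of signal transduction genes and that of other chemoattractants, the called genes and those with the smallest p. Members, lists and the rule were chosen with earlier results of these data known. Counting intervals and floors cover counting error only. Some genes that count in the totals are not reported here.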

Additional observations from a re-analysis of the deposited data

How the results depend on the processing

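With all libraries kept, the number of ligands called lower was 10 and stayed between 7 and 12 under the other settings except without a filter, where 18132 genes entered the adjustment and it was 5. The number of receptors called higher was 1 and became 2 in DESeq2 and with the replicate block (Ackr3 was added in both). The number of receptors called lower (4) and of ligands called higher (1) stayed within 1.5 times. Signal transduction genes called higher went from 7 to 3 without a filter. Those called lower went from 9 to 3 without a filter, 3 on the TPM matrix, 21 in DESeq2 and 16 with the replicate block. Over all genes the calls moved in the same directions. Those called higher went from 1443 to 788 without a filter. Those called lower went from 1088 to 532, 552, 1736 and 1497 in the same order of settings. The cause was not tested. Nothing in the labels pairs equal library numbers (r = 0.194 between their deviations across 14106 genes), and the replicate block called 18 members, 15 of them among the 16: Ackr3, Ccl2 and Ccl9 were added and Cxcl5 was lost, while the share of all tested genes called went from 17.9% to 23.2%.

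Leaving out 1 library each gave 0 to 3 ligands called higher, 0 to 12 ligands called lower, 0 to 3 receptors called higher, 0 to 5 receptors called lower, 0 to 8 signal transduction genes called higher and 0 to 30 called lower. The zeros came without Ctrl 1 or Ctrl 2. In each case the lone library was assumed to vary like those of the other group.

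No called member changed direction. On the TPM matrix 6 of the 43 tested members with a value there reversed, none of them called. Among them were Ccl7, Cxcl10 and Cxcl12, chosen by the naming rule, which went to log2 fold changes of 0.095, 0.021 and -0.10. Leaving out 1 library gave ranges that crossed 0 for 14 of the 44 tested members, none of them called, of which the naming rule had chosen 9: Ccl19 from -0.38 to 0.037, Ccl21a from -2.49 to 0.51, Ccl7 from -0.18 to 0.095, Cx3cr1 from -0.11 to 0.35, Cxcl10 from -0.34 to 0.16, Cxcl12 from -0.12 to 0.23, Cxcr6 from -0.079 to 0.30, Xcl1 from -0.080 to 0.18, Xcr1 from -0.13 to 0.22.

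With 2 libraries per group the spread between libraries limits the tests. Over all tested genes that spread exceeded counting noise, but spread and depth were not compared member by member. Members under about 1 CPM, such as Cxcl5, are also limited by counting error.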

Other observations

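Some members had 1 library far from the others, and they were picked after their values had been seen. Cxcl13, the ligand that draws B cells into follicles through Cxcr5, measured 1.61 and 1.06 CPM in Ctrl, 1.33 CPM in WC1 1 and 12.4 CPM in WC1 2. Its receptor Cxcr5 had 0.292 and 0.0690 CPM in Ctrl, 0.442 CPM in WC1 1 and 3.18 CPM in WC1 2. Both were thus high in the same library. Ccr6, which B cells also carry, had 0.161 and 0.0460 CPM in Ctrl, 0 CPM in WC1 1 and 0.461 CPM in WC1 2. The summed CPM of B cell genes was 21.6 and 19.4 in Ctrl, 29.1 in WC1 1 and 86.0 in WC1 2, and 1 of 8 tested (Cd79b) was called higher. Cxcl13 was not called (log2 fold change 1.27 ± 0.82, limma adjusted p = 0.310), and the part of B cells in its level was not tested.

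The following genes, apart from Ccl21a, were likewise picked after the fact. Ccl21a, a lymphatic ligand of Ccr7, had 0.146 CPM in Ctrl 1, 8.12 CPM in Ctrl 2 and 0.967 and 0.350 CPM in WC1. The 95% interval of its log2 fold change ran from -3.48 to 1.505. Ccl21b, which shares all its windows with other genes, had 5.64 and 8.38 CPM in Ctrl and 16.9 and 6.26 CPM in WC1. The complement receptor C5ar1, a chemoattractant receptor outside the symbol rule, had 330 and 44.3 CPM in Ctrl and 214 and 17.0 CPM in WC1, so that library 1 was high in both groups. Cxcl1, a neutrophil attractant, had 3.49 and 4.79 CPM in Ctrl and 7.19 and 5.29 CPM in WC1 without overlap, and missed the threshold (0.49 ± 0.20, limma adjusted p = 0.139).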
